A study of Mus musculus with 4 samples.

Results

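The cells described here were granule progenitor-like cells of 4 mouse medulloblastomas, split by whether a transcript of Hey1 was detected in the cell. They were chosen by their measured values: Atoh1 detected, Ptprc undetected, at most 2 of the 5 neuronal genes Cntn2, Neurod1, Stmn2, Pnoc and Rab3a detected, and at most 1 of 10 mitotic genes (Ccnb1, Cdc20, Ube2c, Plk1, Cenpe, Cenpf, Cenpa, Hmmr, Kif23 and Prc1) detected. By this rule 666 of 6509 cells (10.2%) were members, with 79 of 798, 366 of 2589, 158 of 1229 and 63 of 1893 in tumours 1 to 4. Hey1 was detected in 533 of them (52, 310, 132 and 39) and undetected in 133 (27, 56, 26 and 24). The levels of Hey1, Atoh1, Ptprc and the other genes of the rule are therefore given as descriptions, with no test between the classes.

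Hey1 (chromosome 3, 8663359 to 8667038 in mm10, per the RefSeq annotation of GRCm38.p6) encodes a basic helix-loop-helix repressor of the Hairy and enhancer-of-split-related family. It is switched on when a ligand of a neighbouring cell binds a Notch receptor, the receptor is cut by ADAM and gamma-secretase proteases, and its intracellular domain joins Rbpj and Mastermind proteins on DNA. In the developing cerebellum Notch signalling is known for holding granule neuron progenitors, which depend on Atoh1 and on Sonic hedgehog (SHH), in an undifferentiated state.

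All 4 libraries formed 1 group: untreated end-point SHH medulloblastomas of Ptch1+/- mice, in which 1 copy of the gene for the inhibitory SHH receptor is lost, irradiated at birth. Cells were frozen viably, thawed, sorted for live cells and run on the 10x platform, per the labels. The labels do not say that each tumour came from a separate mouse, and give no age or strain, so p-values measure the spread between these 4 tumours. The tumours held 10458431 to 23439893 UMIs (unique molecular identifiers, which count transcripts), and pairs of libraries shared 0 to 7 cell barcodes.

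Hey1 detection varied between tumours and with depth. It was detected in 65.8, 84.7, 83.5 and 61.9% of members of tumours 1 to 4, a mean of 74.0% ± 11.8 (SD, n = 4). The exact Clopper-Pearson 95% intervals, which cover counting error only, were 54.3 to 76.1%, 80.6 to 88.2%, 76.8 to 89.0% and 48.8 to 73.9%. The intervals of tumours 1 and 4 both lay below those of tumours 2 and 3, without overlap. When each cell was thinned at random to 4900 UMIs, leaving out 0, 52, 50 and 22 shallower cells, the shares were 45.6, 75.5, 81.5 and 61.0%. Tumour 1, whose members were the deepest (median 9768 UMIs against 6688, 5527 and 6559 in tumours 2 to 4), then had the lowest share. Undetected cells were shallower than detected cells in every tumour, with medians of 9650, 5996, 4922 and 5128 against 9974, 6837, 5579 and 7254 UMIs, so the classes were matched on depth before any other gene was compared.

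Within a tumour the amount of Hey1 varied more than counting alone gives at 1 common level and 1 depth. A member held on average 2.57, 2.64, 2.20 and 1.79 Hey1 UMIs, the variance was 3.76, 1.94, 1.60 and 2.84 times the mean, and the highest cell held 15, 12, 10 and 10. Cell depth also varied and adds to that variance. Exactly 1 Hey1 UMI, the level just inside the split, was seen in 16.5, 22.7, 27.2 and 25.4% of members, so the edge between the classes ran through a well-filled part of the distribution. At least 7 UMIs were seen in 11.4, 6.56, 3.80 and 4.76%. The plot of Hey1 UMIs per cell shows these shares.

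**Figure D1:**
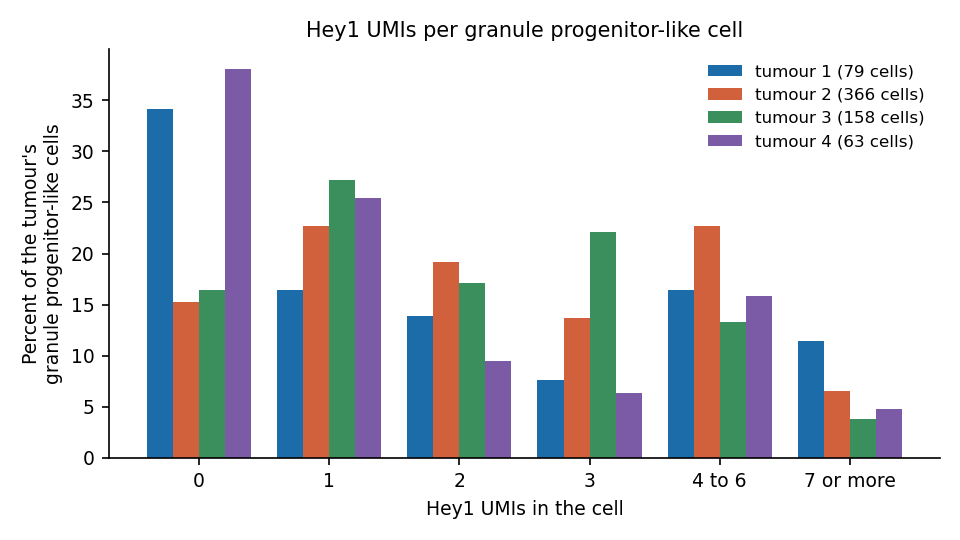
Percent of each tumour's granule progenitor-like cells (y axis) by the number of Hey1 UMIs in the cell (x axis), 1 bar per tumour. Cells without a Hey1 UMI made up 34.2% and 38.1% in tumours 1 and 4 and 15.3% and 16.5% in tumours 2 and 3.

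The level of Hey1 was then set beside that of other cells of the same tumours, as CPM (the gene's summed UMIs scaled to the total UMIs of those cells). Members held 222, 382, 384 and 249 CPM in tumours 1 to 4. Without members rich in immune markers (at least 0.5% of UMIs, described below) they held 226, 384, 388 and 267 CPM. The log2 differences and tests that follow use this second set and the log2(CPM + 10) scale, which shrinks differences between low levels. The non-immune groups compared with this set also leave out cells rich in immune markers. Atoh1-detected cells with at least 3 of the 5 neuronal genes held 187, 319, 336 and 220.5 CPM, and Atoh1-detected cells with at least 2 of the 10 mitotic genes held 184, 229, 256 and 204 CPM. In both kinds of cell each tumour was below its own members, though the ranges of the groups overlapped. The mean log2 difference between members and these cells was 0.25 ± 0.03 for the neuronal and 0.49 ± 0.20 for the mitotic cells (SD, n = 4). Cells that met the rule but for an Atoh1 transcript held 78.3, 310.5, 331 and 92.0 CPM, a difference of 0.85 ± 0.68. In CPM, members were higher in 4 of 4 tumours in each of 4 such comparisons, including the one with immune cells, and the 2-sided exact sign-flip permutation p was 0.125 in each, before and after Benjamini-Hochberg adjustment, the smallest that 4 pairs can give. The share of cells with a Hey1 UMI did not follow the CPM throughout. It was 82.4, 80.1, 75.8 and 77.6% in mitotic and 78.6, 73.7, 78.4 and 65.5% in neuronal cells of tumours 1 to 4. The mean shares were 79.0% in mitotic and 74.1% in neuronal cells, against 75.5% in members without those rich in immune markers and 74.0% in all members. Thinned to 4900 UMIs, the share was 50.6, 61.2, 68.6 and 62.9% in mitotic cells, above members in tumours 1 and 4, and 46.4, 65.5, 66.2 and 53.8% in neuronal cells, above members in tumour 1.

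Immune cells, taken as Ptprc-detected, Atoh1-undetected cells rich in immune markers, give the level at which Hey1 was seen where it is not characteristic. Their Hey1 level was 10.8, 2.12, 21.9 and 12.6 CPM, and a Hey1 UMI was present in 10.4% of 48, 1.32% of 76 and 8.49% of 930 such cells in tumours 1, 2 and 4 and in 1 of 5 in tumour 3, at median depths of 11078, 5629, 8414 and 6389.5 UMIs. Every tumour's members, again without those rich in immune markers, were above its immune cells. The mean difference was 3.95 ± 0.72 on the log2(CPM + 10) scale (SD, n = 4). At such low levels in immune cells, the added 10 makes it smaller than the difference in log2 CPM. At 4900 UMIs the share in immune cells was 4.17% and 5.57% in tumours 1 and 4, and 0 of 48 and 0 of 4 cells in tumours 2 and 3 held a Hey1 UMI.

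**Figure D2:**
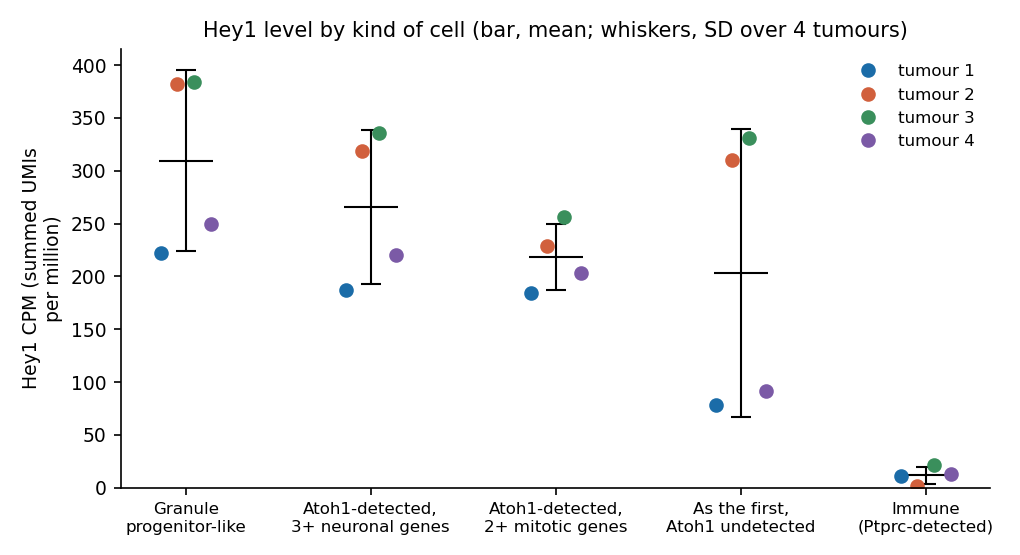
Hey1 level in CPM (y axis) by kind of cell (x axis), with 1 point per tumour, the mean as a bar and the SD over 4 tumours as whiskers. Members lay at 222 to 384 CPM and immune cells at 2.12 to 21.9 CPM.

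The label granule progenitor-like held for most of the cells and went against the markers of a few. In 16 members (2.40%), at least 0.5% of UMIs came from 20 markers of myeloid cells, neutrophils and T and NK cells, although Ptprc was at 0 by the rule. The threshold was set after the cells had been seen, and the next cell below it stood at 0.359%. Of the 16, 10 were Hey1-undetected (7.52% of that class, with 1, 2, 1 and 6 in tumours 1 to 4) and 6 were Hey1-detected (1.13%, with 1, 2, 0 and 3). The 22 granule lineage regulators, among them Zic1, Pax6, Barhl1 and Meis1, summed to 1917, 2598, 3319 and 1695 CPM in the other members of tumours 1 to 4, and to 441, 909, 231 and 195 CPM in the immune-marker-rich members. The latter were unlike each other: the sum was 773 CPM in the detected and 109.9 CPM in the undetected rich cell of tumour 1. In tumour 2 it was 2024 CPM in the 2 detected rich cells, near the level of other members, and 57.3 CPM in the 2 undetected ones, and in tumour 4 it was 245 and 175 CPM. In the Ptprc-detected immune cells the same sum was 98.8, 131, 153 and 134 CPM. In every tumour the other members were thus higher in granule lineage genes than its immune cells, and results that rest on the 16 are given with and without them. No doublet caller was run, and whether the 16 were immune cells without a Ptprc UMI, doublets or cells with free RNA was not tested.

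**Figure D3:**
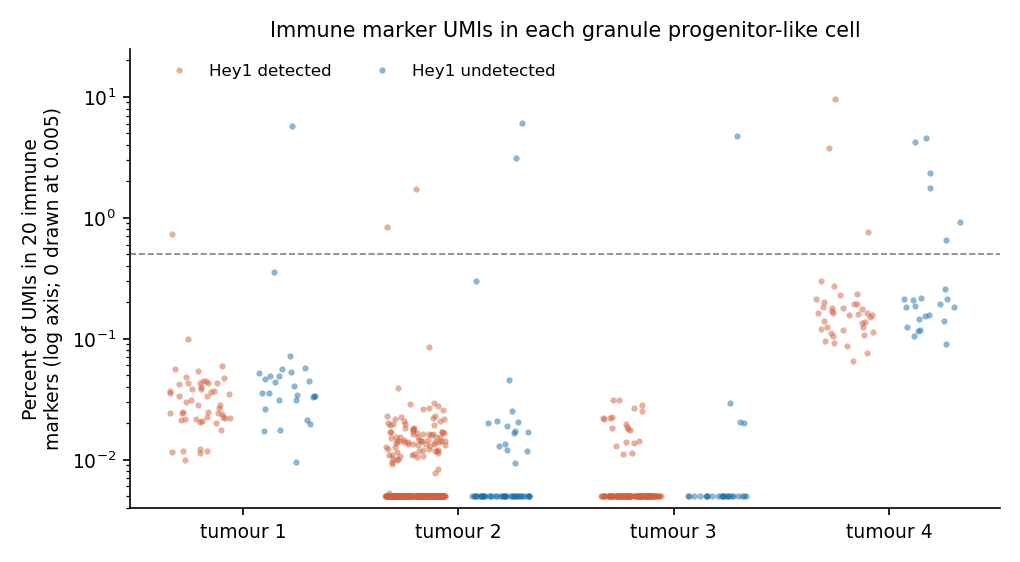
Percent of a cell's UMIs in 20 immune markers (y axis, log scale, cells at 0 drawn at 0.005) for every granule progenitor-like cell by tumour (x axis) and Hey1 class (colour), with the 0.5% threshold dashed. The 10 undetected and 6 detected cells above the line stand apart from the rest of their tumours.

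For the comparison across genes, undetected cells were paired 1 to 1 with detected cells of the same tumour within 0.1 on log2 UMIs, which gave 126 pairs (26, 56, 25 and 19) and left 7 undetected cells out, and their UMIs were summed per tumour and class. Differences are detected minus undetected on the log2(CPM + 10) scale, which understates changes of low genes, and were tested with limma with tumour as a block over 8912 genes. With all members, 62 genes were lower in Hey1-detected cells (0.696% of those tested) and 6 were higher (0.0673%), each in 4 of 4 tumours. At an unadjusted p under 0.05 there were 326 lower and 380 higher. With closer depth matching, within 0.05, 13 genes were lower and 0 higher, and with every cell thinned to 4900 UMIs 6 were lower and 0 higher. Leaving out 1 tumour at a time gave 42 to 91 lower genes, and 14 higher without tumour 1, 5 without tumour 2 and 1 each without tumours 3 and 4.

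Genes of MHC class II and myeloid markers had the most negative of the differences that passed. H2-Aa (chromosome 17, 34282744 to 34287823), a chain of MHC class II, was at 24.4, 5.89, 0 and 209 CPM in the Hey1-detected cells of tumours 1 to 4 and at 363, 1176, 116 and 2487 CPM in the undetected cells. Its levels were lower in the detected cells of every tumour, with the detected sum of tumour 4 above the undetected sum of tumour 3, and the difference was -4.21 (SE 0.51, limma adjusted p = 0.0366). Its partner chain H2-Ab1 differed by -4.04 (SE 0.25, limma adjusted p = 2.09e-08) and H2-Eb1 by -3.35 (SE 0.35, limma adjusted p = 4.61e-05). Tyrobp, the DAP12 adaptor of myeloid receptors, was at 38.4, 5.89, 0 and 258 CPM in the Hey1-detected cells of tumours 1 to 4 and at 304, 200, 231 and 909.6 CPM in the undetected cells, and differed by -3.20 (SE 0.37, limma adjusted p = 0.00136). C1qc, a complement subunit made by macrophages and microglia, differed by -2.69 (SE 0.43, limma adjusted p = 0.0159), at 85.9 ± 158 against 266 ± 208 CPM (mean ± SD, n = 4). Cd52, a surface glycoprotein of leukocytes, differed by -2.81, Bcl2a1b, a survival gene of blood cells, by -2.75, and the macrophage gene Ms4a7 by -2.45. Srgn, which encodes a granule proteoglycan, differed by -2.44, the cathepsins Ctsc and Ctsh by -2.42 and -2.38, and Tmem176a by -2.36. Of the 10 myeloid markers, 10 were tested, 5 passed as lower and 10 were lower in 4 of 4 tumours, with a median difference of -2.72 against 0.04 over all tested genes. Summed myeloid markers were at 15.4 to 2408 CPM in detected and 2239.6 to 8991 CPM in undetected sums.

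These differences sat in few cells. Of the matched cells, 8 undetected and 2 detected were immune-marker-rich, and those 8 held more than 50% of the undetected UMIs in 51 of the 62 lower genes (median 68.2%, against a median of 3.57% over all tested genes). When all 16 immune-marker-rich members were left out and the rest matched again (119 pairs: 25, 54, 24 and 16, a choice made after the calls had been seen), limma called 0 of 8784 genes in either direction (0%). At an unadjusted p under 0.05 there were 191 lower and 245 higher genes, and the smallest adjusted p was 0.356. Leaving out tumour 3 as well gave 3 lower genes (Tmsb4x, S100b and Olig1), and leaving out tumour 4 gave 2 (Igfbp2 and Tmem176a), with 0 higher in either case. Of the 47 lower genes still tested, 38 kept their sign, and their median difference went from -1.70 to -0.42. Without the 16 cells, summed myeloid markers were at 198, 31.0, 16.5 and 802 CPM in the detected cells of tumours 1 to 4. In the undetected cells they were at 440, 118, 24.8 and 956 CPM, higher in each tumour with overlap between tumours. Of the 9 myeloid markers then tested, 7 were negative, 2 positive and 0 passed, with a median difference of -0.63.

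What remained of the MHC class II difference rested on a pair of cells. H2-Aa, H2-Ab1, H2-Eb1 and Cd74 together had 633 UMIs in the undetected members of tumour 1 outside the immune-marker-rich, of which 1 cell held 577 (4.14% of its UMIs) and the next highest 6. In tumour 2, 1 undetected cell held 1067 of 1082 (11.1% of its UMIs). Both cells had 1 Atoh1 UMI and stood just under the 0.5% threshold, at 0.359% and 0.301% of UMIs in immune markers. No detected member outside the 16 held more than 19 of these UMIs. H2-Aa was at 25.2, 6.21, 0 and 208 CPM in the Hey1-detected cells of tumours 1 to 4 and at 375, 877, 0 and 189 CPM in the undetected cells without the 16 cells, with a difference of -2.27 (SE 1.33, limma adjusted p = 0.911).

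**Figure D4:**
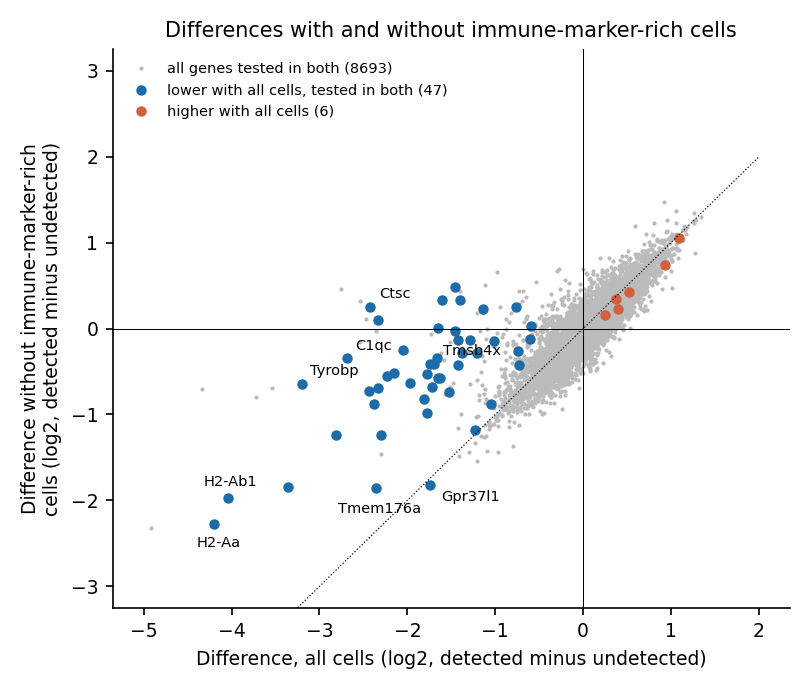
Each gene's difference (detected minus undetected, log2) with all members (x axis) and without the immune-marker-rich members (y axis), for 8693 genes tested in both, with the dotted line marking equal values. Of the 47 lower genes tested in both, all but Gpr37l1 lie closer to 0 on the y axis than on the x axis, and the 6 higher genes lie close to the line.

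The 6 higher genes were each higher in 4 of 4 tumours with all members. Pole3, a histone-fold subunit of DNA polymerase epsilon, was at 122, 124, 146 and 105 CPM in the Hey1-detected cells of tumours 1 to 4 and at 59.3, 97.1, 30.9 and 40.2 CPM in the undetected cells. The groups did not overlap, and the difference was 1.09 (SE 0.26, limma adjusted p = 0.0429). Ppp2r2c, a regulatory subunit of protein phosphatase 2A, was at 126, 224, 362 and 169 CPM in the Hey1-detected cells of tumours 1 to 4 and at 45.4, 135, 193 and 88.5 CPM in the undetected cells, with overlapping groups and a difference of 0.93 (SE 0.20, limma adjusted p = 0.0144). Nnat, an imprinted gene of developing brain, differed by 0.52 (SE 0.12, limma adjusted p = 0.0248) at 574 ± 148 against 397 ± 101 CPM (mean ± SD, n = 4). Sfrp1, a secreted Wnt modulator and a target of SHH signalling, differed by 0.39 (SE 0.08, limma adjusted p = 0.0157) at 1383 ± 619.9 against 1094 ± 597 CPM. Stmn1, a microtubule-destabilising phosphoprotein of dividing and immature cells that has near-identical copies, differed by 0.37 (SE 0.08, limma adjusted p = 0.0248) at 1332 ± 347 against 1056 ± 385 CPM. Hsp90ab1, a constitutive chaperone, differed by 0.24 (SE 0.05, limma adjusted p = 0.017) at 3412 ± 543 against 2876 ± 399 CPM.

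Without the immune-marker-rich members none of the 6 passed, and all 6 kept their direction in 4 of 4 tumours. Pole3 then differed by 1.06 (SE 0.27, limma adjusted p = 0.65), Ppp2r2c by 0.73, Nnat by 0.42, Sfrp1 by 0.23, Stmn1 by 0.35 and Hsp90ab1 by 0.16. The differences of Sfrp1 and Hsp90ab1 were then smaller by more than 1.5 times, and the median of the 6 differences was 0.38 against 0.46 before. Values from here on are given without the 16 cells unless stated otherwise. In that set, the 4 detected sums all lay above the 4 undetected sums in 0.786% of tested genes and all below them in 0.808%.

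No other gene of the Notch pathway passed the test. Of 52 genes listed in it beside Hey1, 35 were tested and limma called 0 in either direction (1 higher and 2 lower at an unadjusted p under 0.05, with all members 4 and 3). Their median difference was -0.02 against 0.01 over all tested genes, with 17 higher and 18 lower. In 1 of the 35 the groups did not overlap, and it was lower.

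Among ligands, 3 of 8 were tested, and each had a negative difference. Dll3, a ligand-like protein that acts inside the cell that makes it, was at 97.3, 80.7, 8.25 and 52.1 CPM in the Hey1-detected cells of tumours 1 to 4 and at 159, 55.8, 33.1 and 242 CPM in the undetected cells. It was lower in 3 of 4 tumours and the groups overlapped, with a difference of -0.86 (SE 0.33, limma adjusted p = 0.911). Jag1, a ligand of the Jagged type, had 3, 1, 2 and 1 UMIs in detected and 3, 2, 2 and 4 in undetected cells, and Dner, a neuronal Notch ligand, differed by -0.11 (SE 0.31, limma adjusted p = 0.977). Of the 4 receptors only Notch1 was tested, since Notch2 and Notch4 were seen in too few cells and Notch3 was not listed in all 4 tables. Notch1 had 2, 0, 0 and 1 UMIs in detected and 2, 1, 1 and 2 in undetected cells of tumours 1 to 4. No difference in receptor transcripts was detectable at such counts.

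Of 32 genes of the proteolytic, nuclear and modifying machinery, 28 were tested, 16 had positive and 12 negative differences, and the median was 0.16. Rbpj, the DNA-binding partner of the Notch intracellular domain, was at 50.4, 46.5, 57.8 and 93.8 CPM in the Hey1-detected cells of tumours 1 to 4 and at 18.01, 52.7, 33.1 and 84.0 CPM in the undetected cells, with a difference of 0.44 (SE 0.30, limma adjusted p = 0.911). Maml2, a Mastermind coactivator, was the gene whose groups did not overlap, with 14.4, 12.4, 8.25 and 10.4 CPM in detected and 18.01, 18.6, 41.3 and 31.5 CPM in undetected cells, which rest on 4, 4, 1 and 1 and 5, 6, 5 and 3 UMIs. Its difference was -0.77 (SE 0.39, limma adjusted p = 0.911). Hdac1, a histone deacetylase found in corepressor complexes, was at 112, 96.2, 165 and 125 CPM in the Hey1-detected cells of tumours 1 to 4 and at 75.7, 99.2, 41.3 and 42.0 CPM in the undetected cells, higher in 3 of 4 tumours, with a difference of 0.90 (SE 0.29, limma adjusted p = 0.911). The gamma-secretase genes Ncstn, Aph1a and Psenen differed by -0.13, 0.19 and 0.26, and the Fringe glycosyltransferases Lfng, Mfng and Rfng by -0.36, 0.62 and 0.43, none past the threshold.

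Hes1, a widely used target of Notch that encodes a related repressor, had a negative difference in every tumour. Hes1 (chromosome 16, 30065357 to 30067796) was at 148, 24.8, 57.8 and 0 CPM in the Hey1-detected cells of tumours 1 to 4 and at 386, 37.2, 82.7 and 84.0 CPM in the undetected cells. Each tumour's detected cells were below its undetected cells, with overlap between tumours, and the difference was -1.36 (SE 0.37, limma adjusted p = 0.907), with a 95% interval of -2.14 to -0.58, and did not pass. The highest undetected cell held 26 of 107 Hes1 UMIs in tumour 1 and 5 of 8 in tumour 4. With all members the difference was -0.79 (SE 0.26, limma adjusted p = 0.267). A Hes1 UMI was present in 69.2, 16.7, 24.0 and 22.2% of all undetected members of tumours 1 to 4 outside the 16, and in 37.3, 8.77, 12.9 and 11.1% of detected ones, although detected cells were deeper. Split by Hey1 UMIs (0, 1, 2 to 3, and 4 or more), Hes1 was at 356, 126, 154 and 73.6 CPM in tumour 1 and at 80.8, 99.6, 38.4 and 5.62 CPM in tumour 3. In tumour 2 it was at 37.2, 19.0, 15.5 and 17.2 CPM and in tumour 4 at 71.2, 11.5, 22.5 and 45.9 CPM, so the class without Hey1 held the highest level in 3 of 4 tumours and no tumour showed a steady order. Hes6, which opposes Hes1, differed by 0.04 (SE 0.20, limma adjusted p = 0.991) and Hes5, another Notch target, by -0.24, although it was higher in detected cells in 3 of 4 tumours. Hes7, Hey2 and Nrarp were too rare to be tested, and Hes3 and Heyl were not listed in all 4 tables.

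Genes of the SHH pathway had mostly positive differences. Of 18 listed, 15 were tested, 11 were positive (4 of them in 4 of 4 tumours), 6 reached an unadjusted p under 0.05, all as higher, and 0 passed after adjustment. Over all tested genes, 5.13% were higher in 4 of 4 tumours, 6.75% were lower in 4 of 4, and 2.79% and 2.17% were higher and lower at an unadjusted p under 0.05. The median difference of the SHH genes was 0.27, and with all members 1, Sfrp1, passed. Their summed level was 2950.3, 4039.9, 5982 and 2584 CPM in the detected cells of tumours 1 to 4 and 2079, 3767, 5472 and 2049 CPM in the undetected cells, higher in each tumour's detected cells with overlap between tumours. Gli1, the transcription factor that reads out the pathway, was at 46.8, 59.0, 74.3 and 52.1 CPM in the Hey1-detected cells of tumours 1 to 4 and at 18.01, 58.9, 57.9 and 10.5 CPM in the undetected cells, with a difference of 0.73 (SE 0.33, limma adjusted p = 0.911). Gli2, its upstream activator, had 6, 10, 3 and 2 against 1, 6, 2 and 0 UMIs, groups that did not overlap in CPM, and a difference of 0.94 (SE 0.40, limma adjusted p = 0.911). Sufu, the inhibitor that holds Gli proteins back, differed by 1.19 (SE 0.40, limma adjusted p = 0.911) and was higher in 3 of 4 tumours. Mycn, the proto-oncogene that SHH induces in progenitors, was at 393, 503, 883 and 229 CPM in the Hey1-detected cells of tumours 1 to 4 and at 216, 496, 636 and 179 CPM in the undetected cells, and differed by 0.41 (SE 0.14, limma adjusted p = 0.911). The D cyclins Ccnd1 and Ccnd2 differed by 0.05 (SE 0.14, limma adjusted p = 0.977) and 0.38 (SE 0.13, limma adjusted p = 0.911).

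Granule lineage regulators, of which 16 of 22 were tested, had 10 positive and 6 negative differences with a median of 0.15. Pax6, a transcription factor of granule cells and their progenitors, was at 205, 177, 413 and 177 CPM in the Hey1-detected cells of tumours 1 to 4 and at 93.7, 177, 298 and 94.5 CPM in the undetected cells, with a difference of 0.59 (SE 0.20, limma adjusted p = 0.911). Lhx1, a LIM-homeodomain factor, differed by 0.61 (SE 0.24, limma adjusted p = 0.911), and both were higher in 4 of 4 tumours without passing. Atoh1, which defines the members, was at 367, 391, 619 and 261 CPM in detected and 299, 484, 570.3 and 336 CPM in undetected cells, higher in detected cells in 2 of 4 tumours. Neuronal differentiation genes outside the rule, 27 of 35 tested, split into 13 positive and 14 negative with a median of -0.01. Rbfox3, the neuronal nuclear antigen NeuN, differed by 0.59 (SE 0.23, limma adjusted p = 0.911) and Chgb, a secretory granule protein, by 0.92 (SE 0.39, limma adjusted p = 0.911).

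Genes of G1/S and DNA replication had positive differences in 28 of 32, all of which were tested, with a median of 0.36 against 0.01 over all tested genes. Of these, 6 were higher in 4 of 4 tumours, 6 had an unadjusted p under 0.05 and 0 passed after adjustment, beside 5.13% and 2.79% of all tested genes for the first 2 counts. Their summed level was 3127, 3519, 3564 and 1834 CPM in the detected cells of tumours 1 to 4 and 1456, 3478, 3248 and 1513 CPM in the undetected cells. The gap was widest in tumour 1 and near 0 in tumour 2. Tk1, thymidine kinase, had 13, 10, 5 and 3 UMIs in detected and 5, 7, 1 and 0 in undetected cells, non-overlapping levels and a difference of 1.23 (SE 0.39, limma adjusted p = 0.911). Cdc6, a replication licensing factor, differed by 0.88 (SE 0.40, limma adjusted p = 0.911). G2/M genes outside the rule, 24 of 28 tested, had a median difference of 0.23 with 16 positive and 8 negative. Matched detected cells expressed a mean of 3.72, 2.91, 3.04 and 1.81 of 10 S phase genes and undetected cells 2.28, 2.76, 2.46 and 2.06, so detected cells were above undetected ones in 3 of 4 tumours. The part of cell cycle phase in the other differences was not tested beyond the alternative in which only cells with at most 2 of these genes were kept.

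Ranked by p, genes of astrocytes and glia came first among the negative differences once the immune-marker-rich cells were left out. Genes with more negative differences included H2-Aa, H2-Ab1, Tmem176a and H2-Eb1 (-2.27, -1.97, -1.85 and -1.85), and the most negative over all tested genes was -2.32. S100b, Sparcl1, Slc1a3 and Gpr37l1 were named after their values had been seen. S100b, a calcium-binding protein of glia, was at 79.3, 31.0, 8.25 and 198 CPM in the Hey1-detected cells of tumours 1 to 4 and at 346, 58.9, 24.8 and 861 CPM in the undetected cells. It was lower in 4 of 4 tumours with overlap between tumours, and its difference was -1.44 (SE 0.27, limma adjusted p = 0.356), the smallest p of all 8784 genes. Sparcl1, a secreted matrix protein of astrocytes, was at 64.8, 18.6, 8.25 and 62.5 CPM in the Hey1-detected cells of tumours 1 to 4 and at 223, 37.2, 57.9 and 189 CPM in the undetected cells, with a difference of -1.43 (SE 0.29, limma adjusted p = 0.356). Slc1a3, the glutamate transporter GLAST of astrocytes and radial glia, was at 32.4, 59.0, 74.3 and 62.5 CPM in the Hey1-detected cells of tumours 1 to 4 and at 104, 118, 165 and 147 CPM in the undetected cells. For Slc1a3 the groups did not overlap, and the difference was -1.12 (SE 0.24, limma adjusted p = 0.504). Gpr37l1, a receptor of astrocytes, did not overlap either and differed by -1.82 (SE 0.42, limma adjusted p = 0.579), with 2, 3, 0 and 0 against 11, 16, 9 and 1 UMIs. Gpr37l1 had passed as lower with all members (-1.74, limma adjusted p = 0.0286), with 0% of its undetected UMIs in the immune-marker-rich cells.

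Olig2, a transcription factor of the oligodendrocyte lineage and of early progenitors, had 5, 2, 0 and 2 UMIs in detected and 43, 11, 2 and 4 in undetected cells, and differed by -1.54 (SE 0.38, limma adjusted p = 0.631). Olig1 differed by -1.33 (SE 0.36, limma adjusted p = 0.907) and was lower in 3 of 4 tumours, tumour 3 being the exception. Id1, an inhibitor of basic helix-loop-helix factors induced by BMP, did not overlap between groups and differed by -1.25 (SE 0.40, limma adjusted p = 0.911) on 1, 3, 0 and 1 against 9, 4, 3 and 4 UMIs. Of 20 neural stem and glial regulators 15 were tested, 12 were negative (5 in 4 of 4 tumours, as were 6.75% of all tested genes) and 3 positive, with a median of -0.44. Msi1, an RNA-binding protein of neural progenitors, was among the 3, at 0.78 and higher in 4 of 4 tumours. The list's summed level was 1005, 785, 776 and 1678 CPM in the detected cells of tumours 1 to 4 and 1693, 1122, 942 and 1796 CPM in the undetected cells, lower in detected cells in each tumour with overlap between tumours. Of 12 oligodendrocyte lineage markers 7 were tested, 6 were negative and the median was -0.59. For astrocyte markers 6 of 9 were tested, 4 were negative and the median was -0.29.

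Some of these glial transcripts were concentrated in single cells, in both classes. Among undetected members outside the 16, an S100b UMI was present in 10 of 18 cells of tumour 4 and 11 of 26 of tumour 1, and the highest cell held 35 of 117 S100b UMIs in tumour 4 and 37 of 96 in tumour 1. For Olig1 the highest undetected cell held 24 of 96 in tumour 1 and 15 of 33 in tumour 2. For Gpr37l1 it held 9 of 9 in tumour 3 and 9 of 16 in tumour 2. The highest detected cell held 25 of 35 Gpr37l1 UMIs in tumour 3 and 29 of 44 in tumour 2, and 25 of 51 Olig1 UMIs in tumour 2. Slc1a3 was more widely spread, with a UMI in 15, 24, 11 and 6 of 26, 54, 25 and 18 undetected cells of tumours 1 to 4. Before matching, cells with at least 0.25% of UMIs in astrocyte and oligodendrocyte lineage markers numbered 14, of which 8 were undetected (3, 2, 1 and 2 in tumours 1 to 4) and 6 detected (1, 2, 3 and 0). In the matched sums behind the differences above, undetected cells still included 3, 2, 1 and 2 of these, and detected cells only 1, 0, 0 and 0. Summed oligodendrocyte lineage markers ranged from 335 to 454 CPM in detected and from 481 to 796 CPM in undetected cells, and astrocyte markers from 168 to 323 and from 217 to 389 CPM. Leaving these 14 cells out as well again gave 0 genes past the threshold, with 219 higher and 151 lower at an unadjusted p under 0.05.

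Orders within a tumour also depended on the depth matching. Over all members outside the 16, without matching, the detected and undetected levels of Pole3, Maml2, Gli2, Eed, Slc1a3, Gpr37l1 and Id1 overlapped, and those of Tk1 did not. In tumour 3, detected cells were then at 58.2 against 24.2 CPM of S100b, 167 against 162 CPM of Slc1a3 and 18.1 against 16.2 CPM of Olig2, the opposite order from the matched sums. There the highest detected cell held 16 of 45 S100b, 49 of 129 Slc1a3 and 7 of 14 Olig2 UMIs. The matched detected sums of tumour 3 held 1, 9 and 0 UMIs of these genes and so left those cells out. Id1 in tumour 2 was at 21.1 against 12.4 CPM, Maml2 in tumour 1 at 16.8 against 16.7 CPM, Pax6 in tumour 3 at 273 against 291 CPM and Gli1 in tumour 2 at 54.6 against 58.9 CPM, also in the opposite order.

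**Figure D5:**
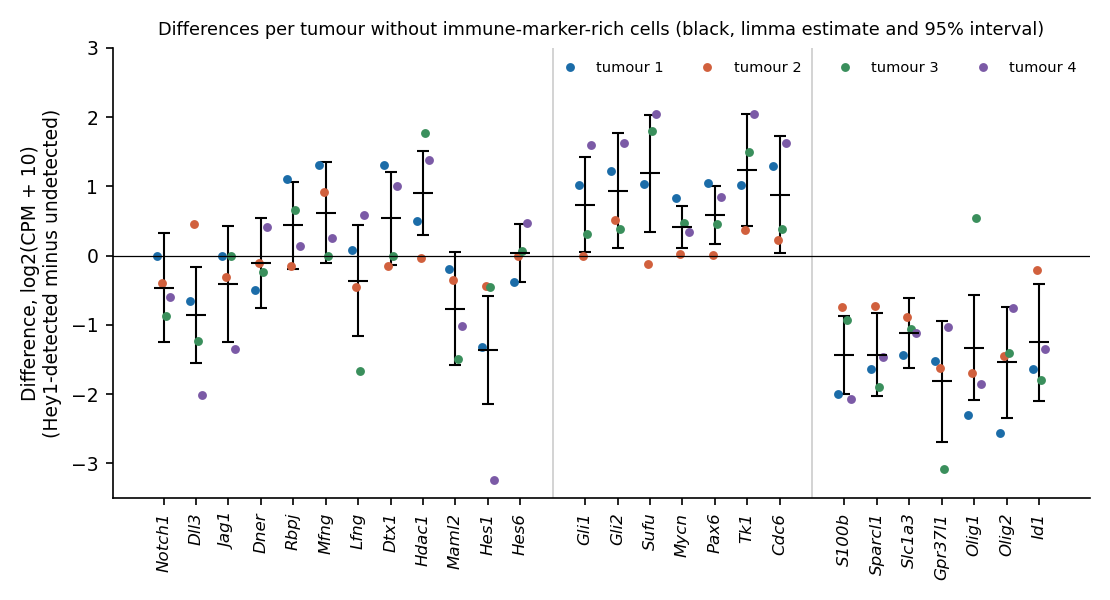
Differences of Notch pathway genes (left), SHH, granule lineage and replication genes (middle) and glial genes with Id1 (right), as detected minus undetected on the log2(CPM + 10) scale (y axis), without the immune-marker-rich members. Coloured points are the 4 tumours, and the black bar and whiskers are the limma estimate and its 95% interval. No gene in the plot passed after adjustment over all tested genes.

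The remaining lists were described in the same way, and none of their genes passed. Cell cycle exit genes (14 of 15 tested) had a median of -0.03, with 5 positive and 9 negative. Of FGF and MAP kinase response genes 8 of 14 were tested, 5 were negative and the median was -0.46. Dusp6, a phosphatase induced by ERK, differed by -0.68 (SE 0.32, limma adjusted p = 0.911) and Etv5, an ETS factor, by -0.63 (SE 0.34, limma adjusted p = 0.911). Their summed level was lower in the detected cells of 4 of 4 tumours, at 213 ± 51.7 against 332 ± 152 CPM (SD, n = 4). BMP response and Id genes (6 of 14 tested) had a median of -0.01, chromatin regulators (17 of 19) 0.07, glycolysis and hypoxia genes (22 of 28) 0.07, and immediate early and dissociation stress genes (13 of 18) -0.16. Among chromatin genes Eed, a subunit of the Polycomb complex, was higher in 4 of 4 tumours with non-overlapping groups and a difference of 0.74 (SE 0.32, limma adjusted p = 0.911). The median share of mitochondrial UMIs in matched detected cells of tumours 1 to 4 was 3.93, 3.57, 3.69 and 3.63%, and in undetected cells 4.12, 3.13, 3.07 and 4.20%.

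Cells on either side of each limit of the rule were set side by side, with no test. Here the immune-marker-rich members are included. Members with 2 neuronal genes held 246, 396, 350.4 and 249 CPM of Hey1 and cells with 3, otherwise members, held 223, 384, 376 and 236 CPM. Members with 1 mitotic gene held 267, 367, 361 and 281 CPM and cells with 2 held 232, 379, 302 and 265 CPM. Members with a single Atoh1 UMI held 106, 392, 359 and 212 CPM, tumour 1 being the lowest. Without the immune-marker-rich members these levels were 112, 402, 359 and 243 CPM. The few cells kept out by a single Ptprc UMI, 4, 4, 1 and 14 in number, held 42.9, 131, 0 and 58.7 CPM, below the members in every tumour, with a median of 1.61, 0.0163, 0 and 2.55% of UMIs in immune markers.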

How the data were processed

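Single-cell RNA-seq tables of 4 tumours were used, 1 library each. Reads were processed with Cell Ranger and Seurat on mm10, per the submitters' processing notes; versions and the handling of reads shared by near-identical genes (Stmn1, H2-K1 and others) are not given in the sources used here. From the values, the deposited unit is log2(UMIs / the cell's size factor + 1), made by the authors, and whole UMIs were recovered from it (tolerance 0.001). As the deposited unit is log2 and not counts, limma was used and no count model. Members and gene lists were chosen with earlier results of these data known.

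UMIs were summed per tumour and class over depth-matched cells (within 0.1 log2 UMIs, without replacement), scaled to CPM and taken as log2(CPM + 10). Genes listed in all 4 tables (13149) and detected in at least 5% of matched cells were tested with limma 3.58.1 (statmod 1.5.0, R 4.3.3), with tumour as a block because both classes came from the same tumour, trended and robust moderation, and Benjamini-Hochberg adjustment over all tested genes at 0.05. Python 3.11.15, numpy 2.4.6, scipy 1.17.1, pandas 2.3.3 and matplotlib 3.10.9 were also used. The fit was also run on simulated sums with known changes, in which each gene varied independently. The simulation did not include a few cells that hold most UMIs of many genes, as seen here. No doublets were called.

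Named genes were the 12 largest differences that passed in each direction, every tested Notch gene, up to 4 per other list with the largest absolute difference, and Gli1, Gli2, Mycn, Ccnd1, Ccnd2, Sox2 and Olig2. Genes named after their values were seen are so described. Alternatives changed depth handling, the Hey1 threshold, the measure, pseudocount, filter, scaling, moderation, block, members and tumours used. The settings without immune- or glial-marker-rich members were chosen after seeing the data. Positions are from RefSeq on GRCm38.p6.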

Additional observations from a re-analysis of the deposited data

Results flagged for a closer look

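In 10 of 220 differences examined across the 4 tumours, 1 tumour stood apart from the others by a gap above Dixon's 95% critical value for 4 samples. Chance alone gives this in about 5% of such quantities. With all members, the MHC class II gene H2-Aa stood at -6.22 in tumour 2, and Mib1, a ubiquitin ligase for Notch ligands, at -1.15 in tumour 3, where it also stood apart without the immune-marker-rich members, at -0.95. Hells, a chromatin remodeller of dividing cells, stood at 2.09 in tumour 1 and Top2a, a topoisomerase of dividing cells, at 2.08 in tumour 4. Etv1, an ETS factor, stood at -1.27 in tumour 4. Without the immune-marker-rich members, Ccng1, a target of p53, stood at 1.42 and the immediate early gene Ier3 at -2.06 in tumour 1. Dusp1, a stress-induced phosphatase, stood at -2.11 in tumour 3 and Klf6, a zinc finger factor, at -2.05 in tumour 4. All are detected minus undetected on the log2(CPM + 10) scale.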

How the results depend on the processing

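With all members, 6 genes were higher and 62 lower. The count was 0 higher and 6 lower with thinned cells, 0 and 13 with closer matching, 0 and 8 with a pseudocount of 1, 0 and 0 with the mean deposited log2 values (323 and 254 at an unadjusted p under 0.05), and 0 and 0 without trended or robust moderation (307 and 338). With a filter at 20% of cells, 23 genes were lower. The tumours pair the classes, and the limma fit with no replicate block called 0 higher and 1 lower. Leaving out 1 tumour gave 1 to 14 higher and 42 to 91 lower. Without the immune-marker-rich members there were 0 and 0, and 0 higher and 0 to 3 lower when 1 tumour was also left out. The same 0 and 0 held there with no depth matching, with at least 2 Hey1 UMIs, with few S phase genes, with thinned cells, and without glial-marker-rich members. The cause of these changes was not tested. In settings without immune-marker-rich members, the Ctsc difference changed sign, at 0.26 as matched, 0.01 to 0.43 with 1 tumour left out (against -2.72 to -2.11 with all members and 1 tumour left out), 0.13 with no depth matching, 0.26 with at least 2 Hey1 UMIs, 0.11 with few S phase genes and 0.27 without glial-marker-rich members. The C1qc difference was 0.0599 with at least 2 Hey1 UMIs, 0.0403 with few S phase genes and 0.16 with thinned cells, and the Ctsh difference 0.11 with thinned cells. The share of members with Hey1 detected was 74.0%, against 65.9% thinned and 68.2% with few S phase genes. The setting with none of the neuronal genes detected was not run, since it left fewer than 10 pairs in every tumour. Depth limits rare genes: without the immune-marker-rich members, Notch1 was tested on 2, 0, 0 and 1 UMIs in detected and 2, 1, 1 and 2 in undetected cells. Notch2 was tested only with all members (difference 0.18, limma adjusted p = 0.95), and Notch4 was seen in too few cells to be tested.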

Other observations

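A few Hey1-undetected members of tumour 1 held transcripts of other programmes. Cdkn1c, an imprinted inhibitor of cyclin-dependent kinases, had 480 UMIs in 26 undetected members of tumour 1 outside the immune-marker-rich, of which the 2 highest cells held 249 and 201. In the 51 detected members the highest cell held 19. The skeletal muscle markers had 234 UMIs in the same undetected members, of which the 2 highest cells held 177 and 45.

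The tables list eGFP as a gene, and the labels name no reporter. It was at 85.7, 94.5, 46.5 and 70.2 CPM in detected and 137, 118, 80.8 and 151 CPM in undetected members of tumours 1 to 4 outside the immune-marker-rich, lower in detected members in 4 of 4 tumours. In the matched comparison without those cells eGFP differed by -0.81 (limma adjusted p = 0.911). Among genes named after their values were seen, Cebpz, a CCAAT-binding factor, differed by 1.01 (SE 0.24, limma adjusted p = 0.631) and Tmsb4x, an actin-binding peptide gene, by -0.26 (SE 0.06, limma adjusted p = 0.579).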
